A study of Mus musculus with 14 samples.

Results

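The genes described here encode the parathyroid hormone (PTH) receptor and the core of its cAMP signalling route. The set is defined by 10 gene names, with no measured value in its rule, and was drawn up with earlier results of these data known: *Pth1r*, *Pthlh*, *Gnas*, *Gnaq*, *Adcy6*, *Prkaca*, *Prkar1a*, *Crtc2*, *Pde4b* and *Pde4d*. All 10 were found among the 39179 genes of the differentiation table and among the 35886 genes of the sorted libraries. Both experiments used Ocy454 cells, a mouse osteocyte-like line with a thermosensitive large T antigen, so every group shares this 1 line and its T antigen. Cells were grown to confluence at 33 °C and differentiated at 37 °C. Unsorted cells were collected at days 1, 7, 10 and 14, with 2 libraries each. In the sort, live cells at day 17 were separated by surface CD61, the integrin beta-3 subunit, into the 10% with the brightest signal (CD61high) and the 10% with the dimmest (CD61low), with 3 libraries each. Day 17 is from the sample labels and the study's methods, while the study's results text gives an earlier day. No hormone or drug is named for any of these groups. The study's methods describe the libraries of each day as biological duplicates and those of the sort as coming from 3 independent groups of cells.

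PTH and PTH-related protein (encoded by *Pthlh*) bind PTH1R, a class B G protein-coupled receptor of osteoblasts and osteocytes. The receptor couples to Gs, whose alpha subunit (*Gnas*) turns on adenylyl cyclases such as *Adcy6*, and to Gq (*Gnaq*), which turns on phospholipase C beta. Cyclic AMP frees the catalytic subunit of protein kinase A (PKA, *Prkaca*) from its regulatory subunits (*Prkar1a*), salt-inducible kinases are inhibited, and CRTC coactivators (*Crtc2*) enter the nucleus to act with CREB. Phosphodiesterases such as *Pde4b* and *Pde4d* break cAMP down. In osteocytes this route is known for lowering sclerostin (*Sost*) and raising RANKL (*Tnfsf11*).

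On GRCm39 the members lie at chr9:110550767-110576259 (*Pth1r*, minus), chr6:147153599-147165681 (*Pthlh*, minus), chr2:174126022-174188537 (*Gnas*, plus), chr19:16110027-16365882 (*Gnaq*, plus), chr15:98487854-98507957 (*Adcy6*, minus), chr8:84699575-84723091 (*Prkaca*, plus), chr11:109513434-109560633 (*Prkar1a*, plus), chr3:90161460-90171432 (*Crtc2*, plus), chr4:101944740-102465716 (*Pde4b*, plus) and chr13:108586482-110092497 (*Pde4d*, plus). Exons of other annotated genes cover 10.8% of the exonic bases of *Prkaca*, 9.26% of those of *Gnas*, 8.69% of those of *Adcy6* and at most 1.99% of those of any other member. The sources used here do not say whether reads were counted by strand, so reads over these bases cannot be assigned to 1 gene with certainty.

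Libraries held 27518605 to 34311238 reads on genes in the differentiation experiment and 18815602 to 19220064 estimated counts in the sort. *Itgb3*, which encodes CD61, was at 5.31 to 6.10 CPM scaled by TMM factors (TMM-scaled CPM) in CD61low and at 100.1 to 130.1 in CD61high libraries. Of 12 osteoblast and osteocyte markers, 10 were tested in each experiment. From day 1 to day 14, 8 rose and 2 fell, beside 32.6% and 36% of all genes tested. In CD61high cells 9 were higher and 1 lower, beside 19.4% and 16% of all genes tested. *Fgf23* was at 0 in the differentiation libraries and *Mepe* averaged at most 0.411 CPM. The osteoclast genes *Calcr* and *Dcstamp* and the macrophage gene *Adgre1* were at 0 in all 14 libraries. The 6 osteoclast markers summed to 87.6 to 88.0 CPM at day 1, 63.5 to 66.0 at day 7, 82.7 to 84.0 at day 10 and 60.1 to 62.5 at day 14, and to 17.9 to 19.6 TMM-scaled CPM in CD61low and 18.6 to 24.8 in CD61high libraries, almost all of it *Ctsk*. The 6 macrophage markers summed to 7.37 to 7.94, 4.74 to 5.14, 10.4 to 11.8 and 6.27 to 7.38 CPM on these days, mostly *Cd68* and *Cd14*, both of which rose from day 7 to day 10. The 6 endothelial markers summed to 0.690 to 1.33 CPM at day 1, 4.68 to 6.36 at day 7, 124 to 132 at day 10 and 17.9 to 19.3 at day 14, and to 14.8 to 20.9 TMM-scaled CPM in CD61low and 72.5 to 91.3 in CD61high libraries. From day 7 on and in the sort almost all of this was *Vwf* (log2 fold change 2.16 in the sort, edgeR, adjusted p = 9.65e-07), with *Emcn* at 0 and *Kdr* and *Cdh5* at or near 0. The 6 chondrocyte markers summed to 92.4 to 94.1 CPM at day 1, 79.1 to 81.5 at day 7, 70.5 to 71.1 at day 10 and 104.3 to 122.7 at day 14, and to 39.4 to 48.7 TMM-scaled CPM in CD61low and 100.4 to 118 in CD61high libraries, mostly *Sox9* in the sort and *Acan* at day 14, and the 6 macrophage markers to 17.1 to 22.6 and 12.5 to 13.2. The part of these markers in the differences between days and between sorted groups was not tested.

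The RefSeq promoters of *Pth1r* are shown because this receptor had the largest rise among the members and its transcripts begin at separate places. Each sequence covers 250 bases before and 50 after an annotated start (RefSeq, GRCm38.p6), was placed on GRCm39 by an exact match, and is written 5′ to 3′ on the minus strand. Capitals mark TGACG on either strand (CGTCA when it lies on the other strand), the core of the cAMP response element to which CREB binds.

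Pth1r, start 110576213, chr9:110576164-110576463: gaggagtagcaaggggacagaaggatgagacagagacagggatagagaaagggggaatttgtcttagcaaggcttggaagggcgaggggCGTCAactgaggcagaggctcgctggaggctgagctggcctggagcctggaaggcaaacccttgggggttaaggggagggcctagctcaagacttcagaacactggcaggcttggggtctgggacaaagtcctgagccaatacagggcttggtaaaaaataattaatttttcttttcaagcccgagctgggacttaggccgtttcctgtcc

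Pth1r, start 110572754, chr9:110572705-110573004: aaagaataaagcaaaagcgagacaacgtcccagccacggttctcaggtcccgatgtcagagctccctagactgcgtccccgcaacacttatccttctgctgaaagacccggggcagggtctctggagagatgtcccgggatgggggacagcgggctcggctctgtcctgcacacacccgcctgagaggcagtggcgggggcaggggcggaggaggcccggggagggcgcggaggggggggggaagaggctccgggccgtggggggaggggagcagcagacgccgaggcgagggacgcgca

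Pth1r, start 110571678, chr9:110571629-110571928: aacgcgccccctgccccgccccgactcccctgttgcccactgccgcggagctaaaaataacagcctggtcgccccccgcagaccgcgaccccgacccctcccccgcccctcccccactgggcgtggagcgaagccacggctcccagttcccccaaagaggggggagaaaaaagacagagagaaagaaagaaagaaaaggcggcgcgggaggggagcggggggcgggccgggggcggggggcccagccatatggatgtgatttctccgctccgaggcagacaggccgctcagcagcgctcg

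The most upstream window held TGACG once, 161 bases before the start and on the opposite strand, and these letters were in neither of the other windows. Promoter sequences were found for 8 of the 10 members, 22 windows in all, some of which overlap. The palindromic element TGACGTCA, which holds TGACG on both strands, was in 2 of the 22, both of *Prkar1a*, and in 1.79% of 32851 RefSeq promoters of this length. TGACG was in 9 of the 22, from *Gnas*, *Pde4b*, *Prkaca*, *Prkar1a* and *Pth1r*, and in 20.8% of all promoters. A *Prkar1a* window with the palindrome is shown on the plus strand. Its annotated start lies 250 bases downstream of the start of *Prkar1a-201*, the main quantified transcript.

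Prkar1a, start 109541688, chr11:109541438-109541737: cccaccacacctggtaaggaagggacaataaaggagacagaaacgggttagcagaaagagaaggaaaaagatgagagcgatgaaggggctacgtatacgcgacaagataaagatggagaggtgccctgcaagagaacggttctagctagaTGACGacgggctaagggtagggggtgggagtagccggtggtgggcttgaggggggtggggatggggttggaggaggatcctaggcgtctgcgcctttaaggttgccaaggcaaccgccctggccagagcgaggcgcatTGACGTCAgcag

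Levels of different genes were compared per length, within each experiment only, since the experiments differ in RNA kit and counting. In CPM per kb, the highest member at day 1 was *Prkar1a*, followed by *Prkaca* (83.7 ± 0.302, SD, n = 2) and *Pth1r* (82.6 ± 0.459). At day 14 *Pth1r* led with 461 and 476 in its 2 libraries, ahead of *Prkar1a* with 93.1 ± 4.37 and *Prkaca* with 68.0 ± 0.180. *Adcy6* (30.9 ± 0.261), *Gnaq* (9.39 ± 0.323), *Crtc2* (8.34 ± 0.650) and *Gnas* (8.03 ± 0.440) followed, of which *Crtc2* and *Gnas* overlapped, and *Pde4d* (1.34 ± 0.0504), *Pde4b* (0.521 ± 0.0248) and *Pthlh* (0.0341 ± 0.0482) were lowest. In TPM in CD61low cells the order was *Gnas* (1510.0 ± 91.5, SD, n = 3), *Pth1r* (242 ± 24.6), *Prkar1a* (158 ± 6.49), *Prkaca* (121 ± 5.97), *Crtc2* (84.5 ± 6.25), *Adcy6* (48.6 ± 6.01), *Gnaq* (19.0 ± 1.30), *Pde4b* (8.56 ± 1.13), *Pde4d* (6.12 ± 1.43) and *Pthlh* (0.188 ± 0.261). Among neighbours in this order, libraries of *Pde4b* and *Pde4d* overlapped and the others did not. CD61high cells had the same order down to *Gnaq*, with *Gnas* at 2173 ± 86.7 and *Pth1r* at 728 ± 22.7; there *Crtc2* (56.2 ± 2.53) and *Adcy6* (51.3 ± 6.88) overlapped and *Pde4d* (7.15 ± 1.50) stood above *Pde4b* (3.91 ± 0.812).

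*Pth1r*, the receptor, rose early in differentiation and was higher in CD61high cells. It was at 203 and 205 CPM on day 1, 1094 and 1143 on day 7, 698 and 731 on day 10, and 1138 and 1176 on day 14. Days 1, 7 and 10 did not overlap, and day 14 overlapped day 7. The level rose 5.49-fold from day 1 to day 7 (log2 fold change on log2(CPM + 1) of 2.45, SE 0.0373, limma, adjusted p = 5.84e-27). It fell to day 10 (log2 fold change -0.65, limma, adjusted p = 1.30e-13) and rose again to day 14 (0.70, adjusted p = 2.06e-14). Day 14 against day 1 gave 2.50 (SE 0.0373, limma, adjusted p = 2.70e-27), the value ranked 217 from the highest among 12725 genes. In bulk RNA, fewer cells of a type and less RNA per cell cannot be told apart. From day 7 to day 10, 6 of 10 tested osteoblast and osteocyte markers also fell and 3 rose, beside 18.9% and 29.8% of all genes tested. The endothelial sum, almost all of it *Vwf*, had its highest values at day 10. The part of these markers in the dip was not tested.

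In the sort *Pth1r* was at 297, 246 and 290.0 TMM-scaled CPM in CD61low and 996, 1056 and 1065 in CD61high libraries. The groups did not overlap, and the receptor was 3.74-fold higher in CD61high cells (log2 fold change 1.90, SE 0.0863, edgeR quasi-likelihood test, adjusted p = 2.59e-07), ranked 80 from the highest among 12077 genes.

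Salmon divided the *Pth1r* counts among transcripts that begin near the windows shown above. *Pth1r-201*, which begins 109 bases upstream of the most downstream RefSeq start, took 79.9% ± 1.97 (SD, n = 3) of the gene's estimated counts in CD61low and 77.9% ± 2.95 in CD61high cells. *Pth1r-202*, which begins at 110572754, took 19.1% ± 2.27 and 14.8% ± 1.19. *Pth1r-204*, which begins at 110576259 near the most upstream RefSeq start, took 0.353%, 0.719% and 1.01% in CD61low libraries and 7.83%, 3.14% and 10.5% in CD61high libraries. In estimated counts it was at 22.0, 37.6 and 59.9 in CD61low and at 1329, 576 and 1894 in CD61high libraries, with no overlap. These shares were not tested, and estimates for transcripts that share exons are uncertain.

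The 5 genes most like *Pth1r* over the 8 differentiation libraries, out of 10312 genes averaging 5 CPM or more, were *Tmem119* (Pearson r = 0.9994), *Ldha* (0.999), *Cd200* (0.9988), *Pkm* (0.9978) and *Sorcs2* (0.9977). The 8 points come from 4 days, so this likeness is a description. *Tmem119*, which encodes a membrane protein of osteoblasts, was at 192 and 188 CPM on day 1, 1622 and 1652 on day 7, 853 and 886 on day 10, and 1674 and 1746 on day 14, with the same dip at day 10. In the sort all 5 were higher in CD61high cells, with log2 fold changes of 1.90 (*Tmem119*), 1.58 (*Cd200*), 1.30 (*Sorcs2*), 0.91 (*Ldha*) and 0.79 (*Pkm*) and edgeR adjusted p-values of at most 1.77e-05. Of all genes tested, 19.4% were higher there, and of those that rose by day 14, 38.2% were.

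**Figure D1:**
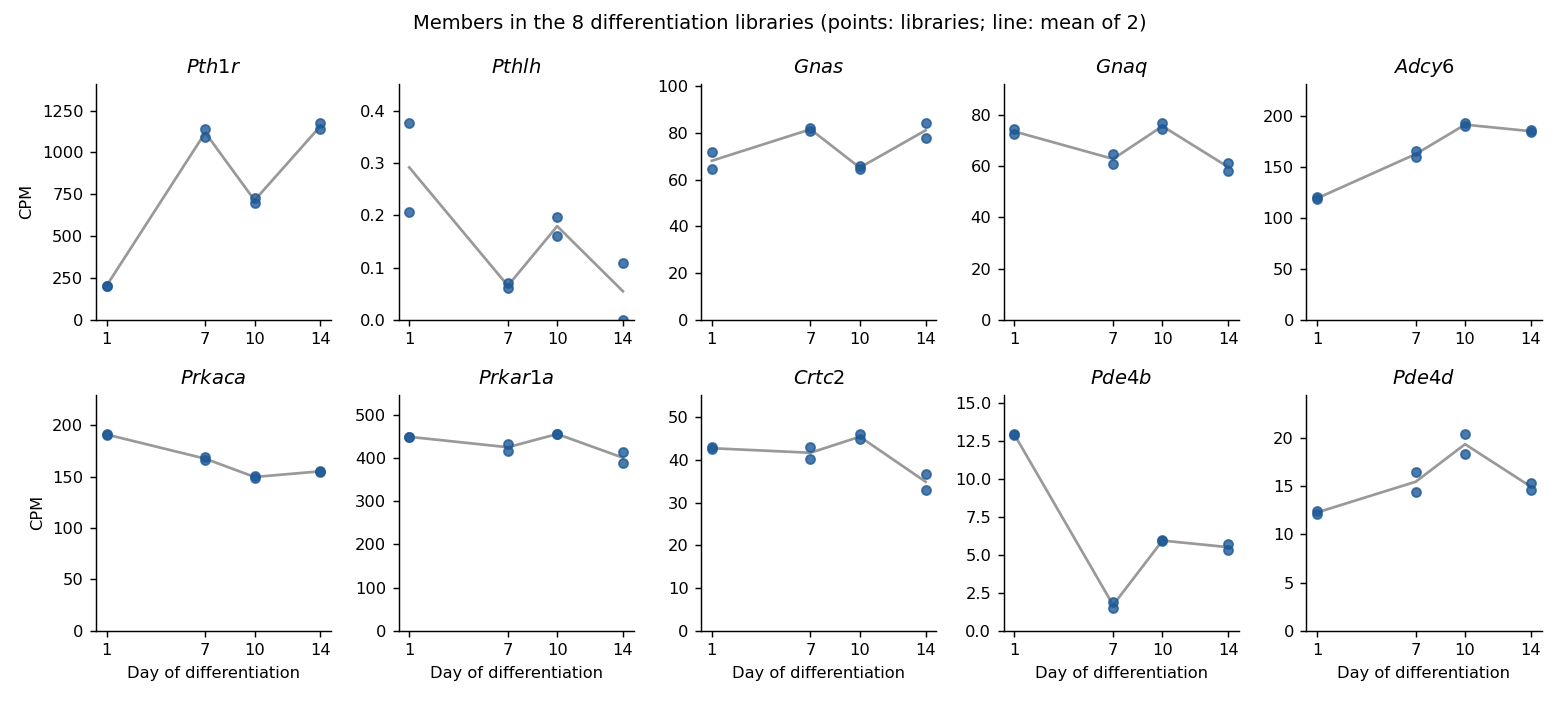
CPM of the 10 members (y axis, linear, from 0) by day at 37 °C (x axis), with 1 point per library and a line through the mean of 2 libraries. *Pth1r* goes from 203 CPM in a day 1 library to 1176 CPM in a day 14 library with a dip at day 10, and *Pde4b* has its lowest values at day 7.

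*Pthlh*, the ligand gene, was hardly detected. The 2 day 1 libraries held 7 and 12 reads, those of day 7 held 2 each, those of day 10 held 6 and 5, and those of day 14 held 0 and 3. The day 14 library with 0 reads allows up to 0.0874 CPM (3 reads), counting error alone considered. In the sort it had 9, 0 and 1 estimated counts in CD61low and 2, 2 and 1 in CD61high libraries. The sorted groups overlapped, and *Pthlh* passed the filter on low values in neither experiment, so it was not tested. *Pth*, the hormone gene, and *Pth2r*, which encodes a related receptor, were at 0 in both experiments.

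*Gnas*, the Gs alpha subunit, moved little in the differentiation table, where its values are uncertain, and more in the sort. It was at 71.8 and 64.5 CPM on day 1, 82.3 and 80.9 on day 7, 65.9 and 64.5 on day 10, and 84.3 and 78.0 on day 14. Libraries of days 7 and 14 lay above those of days 1 and 10. It rose to day 7 (log2 fold change 0.26, SE 0.0513, limma, adjusted p = 8.86e-05), fell to day 10 (-0.32) and rose to day 14 (0.31), and day 14 against day 1 gave 0.25 (limma, adjusted p = 0.000100). Both calls against day 1 were lost in limma without day 1 replicate 2 (adjusted p = 0.0122 at day 7 and 0.0133 at day 14). In the sort *Gnas* was at 1334, 1175 and 1135 TMM-scaled CPM in CD61low and 2099, 2326 and 2163 in CD61high libraries. The groups did not overlap, and *Gnas* was 1.81-fold higher in CD61high cells (log2 fold change 0.85, SE 0.0822, edgeR, adjusted p = 1.66e-05). *Gnas-208* took 49.4% ± 1.06 of its estimated counts in CD61low and 45.0% ± 0.507 in CD61high cells. HTSeq counts per gene placed *Gnas* far lower among the members over time than Salmon did in the sort. Its level and its changes in the differentiation table are therefore uncertain.

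*Gnaq*, the Gq alpha subunit, moved opposite to *Gnas* at each step in the differentiation table, where the *Gnas* values are uncertain. It was at 72.5 and 74.4 CPM on day 1, 60.9 and 64.6 on day 7, 76.7 and 74.3 on day 10, and 61.0 and 58.1 on day 14. It fell to day 7 (log2 fold change -0.22), rose to day 10 (0.26) and fell to day 14 (-0.34), and day 14 against day 1 gave -0.30 (SE 0.0478, limma, adjusted p = 3.89e-06). In the sort it was at 49.4, 53.3 and 56.9 TMM-scaled CPM in CD61low and 58.5, 49.8 and 53.8 in CD61high libraries. The groups overlapped on this scale (log2 fold change 0.02, SE 0.0868, edgeR, adjusted p = 0.840). In estimated counts they did not, with CD61high libraries lower. Of 13 other G protein genes tested, 5 rose and 3 fell from day 1 to day 14, and 3 were higher and 0 lower in CD61high cells (edgeR). Of all genes tested, 32.6% rose and 36% fell, and 19.4% were higher and 16% lower. *Gng11*, a gamma subunit, rose from 23.0 ± 1.01 to 59.3 ± 3.25 CPM (log2 fold change 1.33) and was also higher in CD61high cells (0.61), while with library size alone none of the 3 (*Gnai2*, *Gng11* and *Gng12*) was called in edgeR (adjusted p from 0.0252 to 0.312). *Gna13*, the G13 alpha subunit, rose from 147 ± 0.795 to 240.0 ± 0.188 CPM (0.70).

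*Adcy6*, an adenylyl cyclase that calcium inhibits, rose while *Adcy7*, another cyclase, fell. *Adcy6* was at 120.5 and 118 CPM on day 1, 159.8 and 166 on day 7, 190.3 and 194 on day 10, and 187 and 184 on day 14. Day 1 lay below all later days. It rose to day 7 (log2 fold change 0.44) and to day 10 (0.23), and day 14 against day 1 gave 0.63 (SE 0.0377, limma, adjusted p = 4.30e-14). *Adcy7* was at 88.5 and 87.6 CPM on day 1, 18.3 and 16.1 on day 7 and 13.3 and 13.7 on day 14 (day 14 against day 1 -2.62, SE 0.0705, limma, adjusted p = 1.12e-21). In CPM per kb, *Adcy6* made up 41.5% ± 0.329 (SD, n = 2) of the summed cyclases at day 1 and 69.4% ± 0.0538 at day 14, while *Adcy7* went from 29.1% ± 0.0963 to 4.82% ± 0.142. The cyclases summed to 48.0 ± 0.197 CPM per kb at day 1 and 44.5 ± 0.341 at day 14.

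In the sort *Adcy6* was at 116, 115 and 134 TMM-scaled CPM in CD61low and 170.1, 141 and 164 in CD61high libraries. The groups did not overlap on this scale, though the estimated counts and TPM did (log2 fold change 0.38, SE 0.0923, edgeR, adjusted p = 0.00643), but in edgeR the call was lost without CD61low replicate 1 or 2 or CD61high replicate 1 or 3 (adjusted p from 0.0221 to 0.0333), with an offset for transcript length (0.0157) and with library size alone (log2 fold change 0.08). *Adcy7* was at 18.4, 22.0 and 20.6 TMM-scaled CPM in CD61low and 6.75, 5.35 and 5.65 in CD61high libraries (log2 fold change -1.78, SE 0.132, edgeR, adjusted p = 2.84e-06). In TPM *Adcy6* made up 54.2% ± 2.03 (SD, n = 3) of the cyclases in CD61low and 65.5% ± 2.32 in CD61high cells, and *Adcy7* 7.49% ± 0.532 and 2.11% ± 0.101.

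*Prkaca* and *Prkar1a*, a catalytic and a regulatory subunit of PKA, changed by small amounts over time and did not pass the test in the sort. *Prkaca* was at 191 and 191 CPM on day 1, 166 and 169 on day 7, 150.3 and 149 on day 10, and 155 and 155 on day 14. It fell to day 7 (log2 fold change -0.19) and to day 10 (-0.16, lost without day 7 replicate 2), and day 14 against day 1 gave -0.30 (SE 0.0366, limma, adjusted p = 5.41e-08). *Prkar1a* was at 449.8 and 449 CPM on day 1, 434 and 417 on day 7, 456 and 456 on day 10, and 388 and 414 on day 14. Its day 14 libraries lay below those of every other day, and it fell from day 10 to day 14 (-0.19, limma, adjusted p = 0.000126) and from day 1 to day 14 (-0.16, adjusted p = 0.000313), both calls being lost without a trend in limma (adjusted p = 0.0146 and 0.0179). In the sort *Prkaca* was at 163, 143 and 147 TMM-scaled CPM in CD61low and 135, 164 and 161 in CD61high libraries (log2 fold change 0.02, SE 0.0901, edgeR, adjusted p = 0.845). *Prkar1a* was at 239, 256 and 233 TMM-scaled CPM in CD61low and 232, 249.6 and 235 in CD61high libraries (log2 fold change -0.02, SE 0.0691, edgeR, adjusted p = 0.794). Both genes overlapped between the groups on this scale. In TPM and in estimated counts neither overlapped, and both were lower in CD61high libraries. In TPM *Prkaca* was at 121 ± 5.97 (SD, n = 3) in CD61low and 98.5 ± 7.51 in CD61high cells. *Prkar1a* was at 158 ± 6.49 and 123 ± 6.72 TPM.

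*Prkar1b* and *Prkar2b*, other PKA regulatory subunits, changed more. *Prkar1b* rose from 25.3 ± 1.47 to 61.0 ± 6.12 CPM (SD, n = 2) between day 1 and day 14 (log2 fold change 1.24) and was at 28.9 ± 3.82 TMM-scaled CPM (SD, n = 3) in CD61low and 85.5 ± 1.68 in CD61high cells (1.56). *Prkar2b* fell from 37.2 ± 0.707 to 21.5 ± 0.769 CPM (-0.76) and was lower in CD61high cells (-0.93). *Prkar2a* fell over time (-0.46). In the sort its difference was small and its call depended on the scaling. It passed with TMM factors (log2 fold change 0.28, edgeR, adjusted p = 0.00865), gave 0.10 with an offset for transcript length (adjusted p = 0.626) and -0.016 with library size alone, which moved the median of all genes to -0.293. In TPM, which carries no TMM factors, it was at 43.6 ± 12.2 in CD61low and 37.7 ± 2.57 in CD61high cells. In TPM *Prkar1b* made up 10.3% ± 1.35 of the 4 regulatory genes in CD61low and 25.0% ± 1.34 in CD61high cells, and *Prkar1a* 66.6% ± 4.54 and 55.8% ± 1.46.

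**Figure D2:**
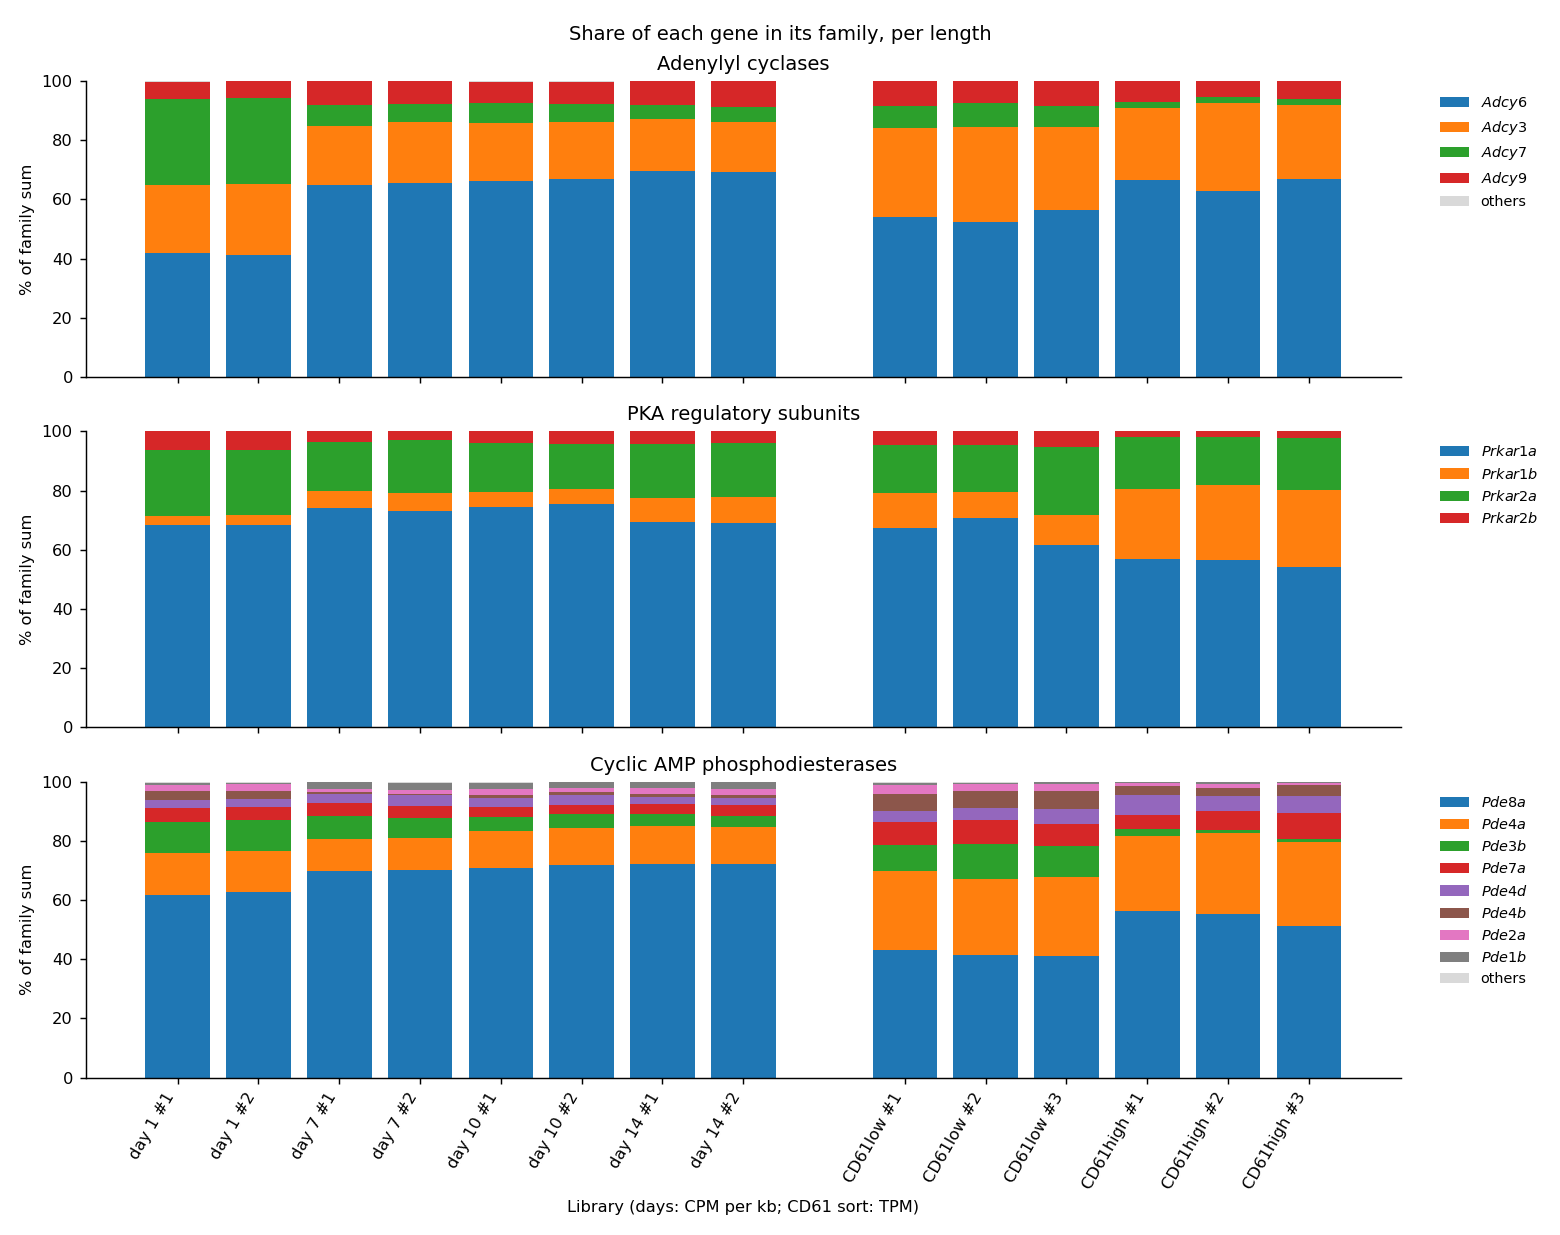
Share (%, y axis) of each gene in the summed level of its family, per length, in each library (x axis; CPM per kb for the days, TPM for the sort), with genes under 2% in every library pooled as others. *Adcy6* takes 41.5% of the cyclases at day 1 and 69.4% at day 14 on average, and *Prkar1b* takes a larger share of the regulatory subunits in CD61high than in CD61low libraries.

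*Crtc2*, a CREB coactivator, had its lowest values at day 14. It was at 42.9 and 42.5 CPM on day 1, 43.1 and 40.2 on day 7, 44.8 and 46.0 on day 10, and 32.9 and 36.8 on day 14. Days 1 and 7 overlapped, and day 14 lay below the other 3 days. It fell from day 10 to day 14 (log2 fold change -0.37, SE 0.0593, limma, adjusted p = 5.70e-06), and day 14 against day 1 gave -0.29 (limma, adjusted p = 0.000108). In the sort it was at 83.4, 87.4 and 90.3 TMM-scaled CPM in CD61low and 75.0, 78.6 and 70.5 in CD61high libraries, which did not overlap but missed the threshold (log2 fold change -0.22, SE 0.0728, edgeR, adjusted p = 0.0283). With library size alone, which moved the median of all genes tested to -0.293, it passed (-0.52). *Crtc1*, a related coactivator, fell from 79.1 ± 3.21 to 45.9 ± 1.22 CPM (-0.77), and *Crtc3* fell over time (-0.32) and was lower in CD61high cells (-0.39), a call lost with an offset for transcript length (-0.63, edgeR, adjusted p = 0.0606). *Sik1*, a kinase that keeps CRTCs in the cytoplasm and is itself induced by cAMP, rose from 14.3 ± 1.26 to 21.0 ± 1.22 CPM (0.52) and was higher in CD61high cells (0.87).

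*Pde4b*, a cAMP phosphodiesterase, had the largest fall of the 9 members tested. It was at 13.0 and 12.9 CPM on day 1, 1.92 and 1.48 on day 7, 6.01 and 5.90 on day 10, and 5.33 and 5.71 on day 14. Day 7 lay below every other library, and days 10 and 14 stayed below day 1. It fell to day 7 (log2 fold change -2.37, SE 0.112, limma, adjusted p = 4.42e-16), rose to day 10 (1.37, adjusted p = 1.09e-10), and day 14 against day 1 gave -1.10 (limma, adjusted p = 2.00e-09), values that the pseudocount of 1 CPM makes smaller at these levels. In the sort it was at 17.4, 17.5 and 17.5 TMM-scaled CPM in CD61low and 9.33, 8.64 and 8.88 in CD61high libraries. The groups did not overlap (log2 fold change -0.96, SE 0.105, edgeR, adjusted p = 3.75e-05).

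*Pde4d*, of the same family, had its highest values at day 10. It was at 12.5 and 12.1 CPM on day 1, 14.4 and 16.5 on day 7, 18.3 and 20.4 on day 10, and 14.5 and 15.3 on day 14. Day 1 lay below all later days. It rose to day 7 (log2 fold change 0.31, limma, adjusted p = 0.00284) and to day 10 (0.31, adjusted p = 0.00338), fell to day 14 (-0.35, adjusted p = 0.000972), and day 14 against day 1 gave 0.26 (adjusted p = 0.00741). Each of these calls was lost when 1 of at least 2 of the 4 libraries compared was left out, with limma adjusted p-values up to 0.0824. In the sort it was at 9.71, 9.95 and 12.1 TMM-scaled CPM in CD61low and 16.9, 12.1 and 14.9 in CD61high libraries, which did not overlap on this scale, though the estimated counts and TPM did, and it missed the threshold (log2 fold change 0.47, SE 0.148, edgeR, adjusted p = 0.0227), and it passed without CD61high replicate 2 (adjusted p = 0.00763). A different gene identifier that the differentiation table also names *Pde4d* was not used.

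Per length, *Pde8a* was the leading phosphodiesterase, with 62.2% ± 0.714 of the sum at day 1, 72.2% ± 0.135 at day 14, 41.8% ± 0.976 in CD61low and 54.2% ± 2.58 in CD61high cells. *Pde4b* took 2.93% ± 0.0478, 0.945% ± 0.0467, 5.97% ± 0.239 and 3.15% ± 0.491 of it. *Pde3b*, which insulin signalling activates, fell from 30.2 ± 0.327 to 14.6 ± 0.381 CPM by day 14 and was at 24.8, 23.9 and 25.9 TMM-scaled CPM in CD61low and 5.05, 4.84 and 5.71 in CD61high libraries (log2 fold change -2.26, edgeR, adjusted p = 3.43e-07). Of 7 other phosphodiesterases tested over time, 3 rose and 2 fell by day 14, and of 6 in the sort 1 was higher and 2 were lower, in each case beside the shares of all genes given above. In edgeR the higher call, of *Pde8a*, was lost with library size alone (adjusted p = 0.0559). The lower call of *Pde2a* was lost with an offset for transcript length (edgeR, adjusted p = 0.0123).

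**Figure D3:**
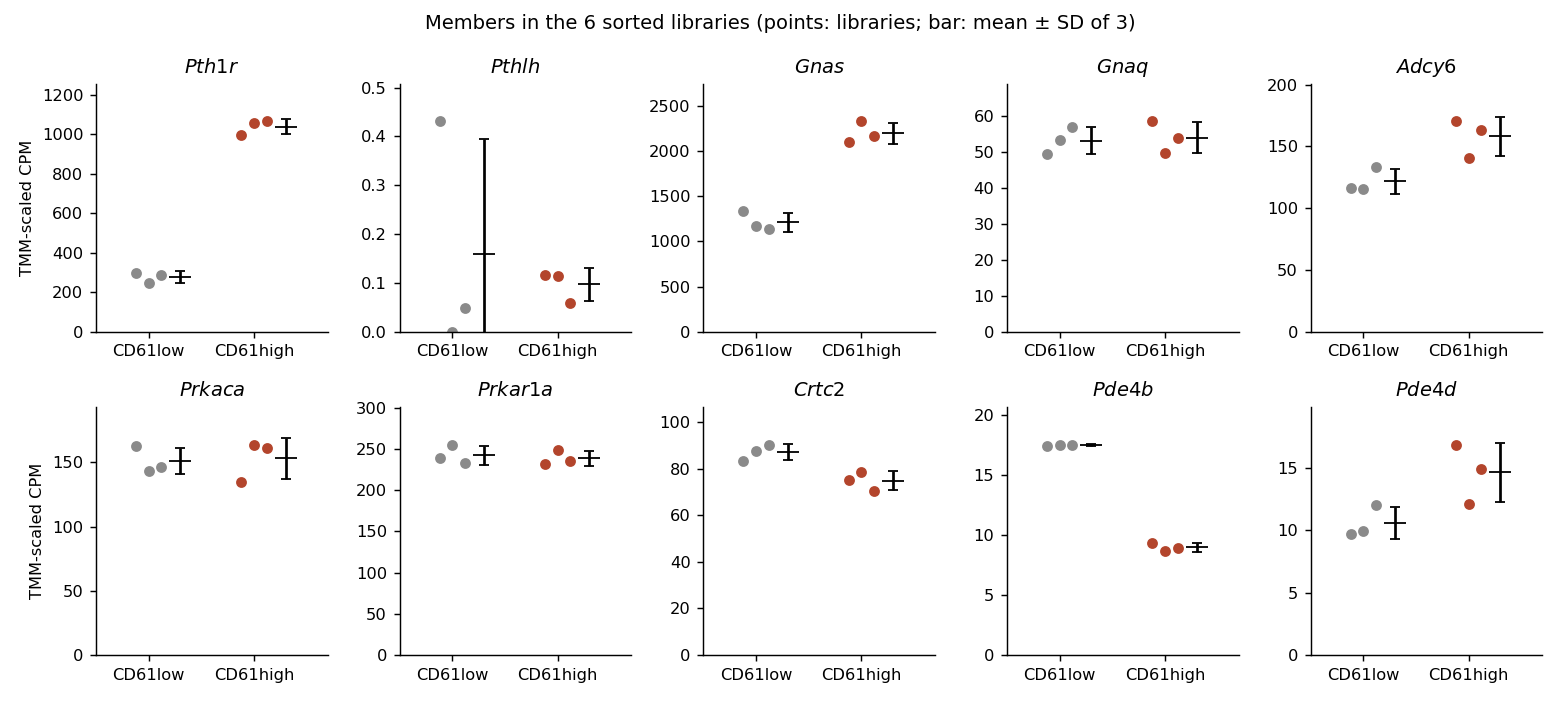
TMM-scaled CPM of the 10 members (y axis, linear, from 0) in the sorted libraries (x axis), with 1 point per library and the mean ± SD of 3 beside them. *Pth1r*, *Gnas*, *Adcy6* and *Pde4d* lie higher and *Crtc2* and *Pde4b* lower in CD61high libraries without overlap on this scale, of which *Crtc2* and *Pde4d* missed the threshold.

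Counted together, 7 of the 9 members tested passed at an adjusted p below 0.01 in limma for day 7 against day 1 (4 up, 3 down), where 56.5% of all genes tested passed, 24.5% up and 32% down. Day 10 against day 7 gave 7 (4 up, 3 down, against 48.7% of all genes, 29.8% up and 18.9% down), day 14 against day 10 gave 6 (2 up, 4 down, against 52.8%, 22.9% up and 30% down) and day 14 against day 1 gave 9 (4 up, 5 down, against 68.6%, 32.6% up and 36% down). These comparisons share libraries. In the sort 4 passed in edgeR, *Pth1r*, *Gnas* and *Adcy6* up and *Pde4b* down, where 35.4% of all genes passed, 19.4% up and 16% down; with library size alone the split was 2 up and 3 down, beside 9.32% and 39.9% of all genes. A log2 fold change beyond 1 was seen for *Pth1r* and *Pde4b* at day 7 and at day 14 against day 1 (9.11% and 13.4% of all genes), for *Pde4b* at day 10 against day 7 (2.22%) and for *Pth1r* in the sort (9.22%), and for no member at day 14 against day 10 (2.96%). The median log2 fold change of the members was -0.17 for day 14 against day 1 and 0.02 in the sort, beside -0.03 and 0.00352 over all genes tested.

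**Figure D4:**
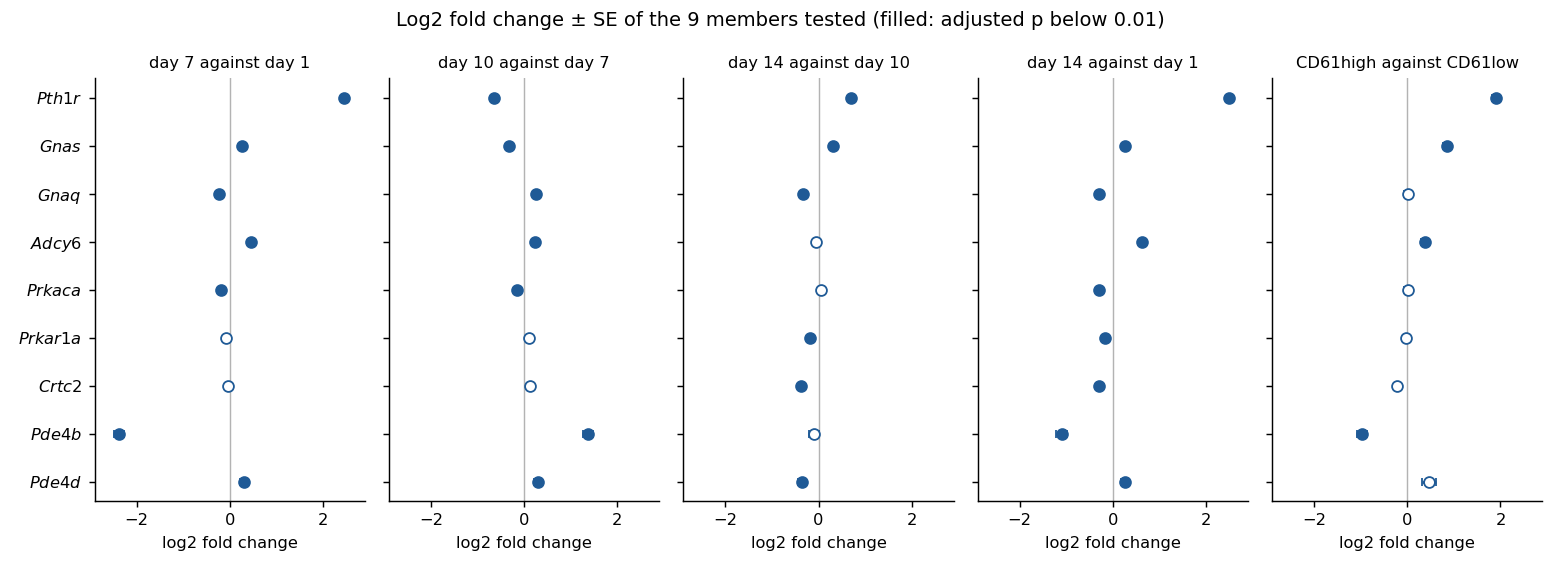
Log2 fold change (x axis) of the 9 members tested (y axis) in each of 5 comparisons, with bars of 1 SE, where filled points had an adjusted p below 0.01. *Pth1r* lies at 2.50 for day 14 against day 1 and at 1.90 in the sort, and *Pde4b* at -1.10 and -0.96.

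The lists held 129 other genes of the pathway. Of 90 tested over time, 38 rose and 27 fell from day 1 to day 14, with a median log2 fold change of 0.09, where 32.6% and 36% of all genes did. Of 88 tested in the sort, 23 were higher and 17 lower in CD61high cells (median 0.10), beside 19.4% and 16% of all genes. With library size alone the counts were 15 and 31, beside 9.32% and 39.9% of all genes. Day 10 against day 7 gave 36 up and 9 down, beside 29.8% and 18.9% of all genes. With TMM scaling of the recovered reads these shares of all genes were 23.1% and 24.8%, and the split of pathway genes is not given here. Day 14 against day 10 gave 22 up and 25 down, beside 22.9% and 30%, or 30 and 20 with TMM scaling of the recovered reads, beside 27.6% and 24.5%.

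In the ligand and receptor group, *Ramp1*, a receptor activity-modifying protein that pairs with class B receptors, had the largest change of the list. It was at 7.11 and 6.77 CPM on day 1, 182 and 188 on day 7, 79.3 and 81.6 on day 10, and 294 and 331 on day 14, a 45.0-fold rise from day 1 to day 14 (log2 fold change 5.30, SE 0.0506, limma, adjusted p = 3.13e-31). Like *Pth1r* it was lower at day 10 than at days 7 and 14, and it was higher in CD61high cells (1.61). *Ramp2*, of the same family, was at 2.12 ± 0.371 CPM on day 1 and 1.73 ± 0.0104 on day 7 (log2 fold change -0.19, limma, adjusted p = 0.233). *Arrb1*, beta-arrestin 1, which uncouples receptors from G proteins, was at 26.5 and 26.7 CPM on day 1, 70.9 and 67.6 on day 7, 76.5 and 73.7 on day 10, and 169.7 and 173 on day 14 (log2 fold change 2.64, limma, adjusted p = 6.96e-26), and in the sort at 68.8 ± 7.97 and 62.8 ± 6.93 TMM-scaled CPM (-0.13, edgeR, adjusted p = 0.329). *Rgs3* rose (1.95) and *Rgs4* fell (-1.62) over time, and both speed the turning off of G proteins. *Rgs2*, of the same family, was at 3.25, 1.97 and 2.78 TMM-scaled CPM in CD61low and 1.35, 0.461 and 0.647 in CD61high libraries (log2 fold change -1.70, SE 0.373, edgeR, adjusted p = 0.00357), a call lost with an offset for transcript length (adjusted p = 0.0537) and without CD61low replicate 1 or CD61high replicate 2 or 3 (0.0120 to 0.0168).

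In the phospholipase C branch *Plcb3* rose and *Plcb1* and *Plcb4* fell over time, with the same directions in the sort. *Plcb3* went from 116 ± 2.40 to 160.3 ± 1.76 CPM (0.46) and was higher in CD61high cells (0.74). *Plcb4* went from 28.9 ± 0.810 to 12.8 ± 3.27 CPM (-1.14) and was at 15.6, 15.6 and 17.3 TMM-scaled CPM in CD61low and 6.10, 3.97 and 4.06 in CD61high libraries (-1.78). *Plcb1* gave -1.12 over time and -1.60 in the sort. Per length, *Plcb3* made up 80.3% ± 0.767 of the phospholipase C beta genes in CD61low and 95.5% ± 0.782 in CD61high cells. *Itpr1* and *Itpr3*, which release stored calcium, and *Prkca*, protein kinase C alpha, rose over time (0.75, 0.76 and 0.52) and were higher in CD61high cells (0.85, 0.46 and 0.93), though edgeR lost the call of *Itpr1* with an offset for transcript length (adjusted p = 0.0259) and that of *Itpr3* with library size alone (adjusted p = 0.205).

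Both EPAC genes, which encode cAMP sensors other than PKA, rose. *Rapgef4* (EPAC2) was at 1.77 and 1.85 CPM on day 1, 10.0 and 10.4 on day 7, 13.3 and 15.4 on day 10, and 15.4 and 12.6 on day 14 (log2 fold change 2.41, limma, adjusted p = 6.93e-17), and in the sort at 6.12, 5.49 and 7.08 TMM-scaled CPM in CD61low and 28.6, 24.1 and 22.5 in CD61high libraries (2.01). *Rapgef3* (EPAC1) rose from 7.49 ± 0.235 to 19.9 ± 1.65 CPM (1.30) and was higher in CD61high cells (0.82). *Akap12*, an anchor for PKA, fell over time (-1.37) and was at 41.9, 47.1 and 49.3 TMM-scaled CPM in CD61low and 14.3, 12.6 and 11.7 in CD61high libraries (-1.84).

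Of 16 genes listed as induced by PTH or cAMP and tested over time, 9 rose and 3 fell by day 14, and of 15 in the sort 7 were higher and 2 lower in CD61high cells, where 32.6% and 36% of all genes rose and fell and 19.4% and 16% were higher and lower. *Nr4a1*, an early-response nuclear receptor, was at 4.16 and 3.58 CPM on day 1, 18.3 and 19.1 on day 7, 55.7 and 49.3 on day 10, and 64.7 and 55.3 on day 14 (log2 fold change 3.65, limma, adjusted p = 2.21e-23). *Ptgs2*, cyclooxygenase 2, was at 14.6 and 13.2 CPM on day 1, 37.6 and 36.2 on day 7, 52.1 and 53.7 on day 10, and 96.2 and 96.4 on day 14 (2.71), and its later days lay above the earlier ones. *Nr4a3*, related to *Nr4a1*, rose by 1.73 on the log2 scale. *Mmp13*, a collagenase, averaged 94.2 ± 4.52 CPM on day 1, 6.17 ± 0.0331 on day 7 and 32.6 ± 1.27 on day 14 (SD of 2 libraries; log2 fold change from day 1 to day 14 of -1.50), but in the sort it was at 3.64, 2.86 and 3.81 TMM-scaled CPM in CD61low and 30.0, 27.8 and 31.2 in CD61high libraries (3.11, edgeR, adjusted p = 2.03e-07). *Adamts1*, a matrix protease, was lower at day 14 (-1.11) and in CD61high cells (-1.85). *Tnfsf11* was at 1.06 ± 0.213 CPM at day 1 and 1.15 ± 0.347 at day 14 (log2 fold change 0.06, limma, adjusted p = 0.737) and was not tested in the sort.

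Of 16 other receptors listed as Gs-coupled, 5 passed the filter over time and 6 in the sort, where 4 were lower in CD61high cells and 0 higher (edgeR), beside 16% and 19.4% of all genes. *Adrb1*, the beta-1 adrenergic receptor, was at 8.08, 6.94 and 6.64 TMM-scaled CPM in CD61low and 1.47, 1.32 and 1.47 in CD61high libraries (-2.34). *Gpr176*, an orphan receptor known to couple to Gz, which lowers cAMP, and so misplaced on this list, was at 5.60, 5.91 and 6.10 TMM-scaled CPM in CD61low and 1.11, 0.921 and 0.412 in CD61high libraries (-2.84). *Vipr1*, a receptor for vasoactive intestinal peptide, was at 0.384 and 0.220 CPM on day 1, 1.05 and 1.48 on day 7, 1.35 and 0.967 on day 10, and 3.99 and 4.07 on day 14 (1.95).

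**Figure D5:**
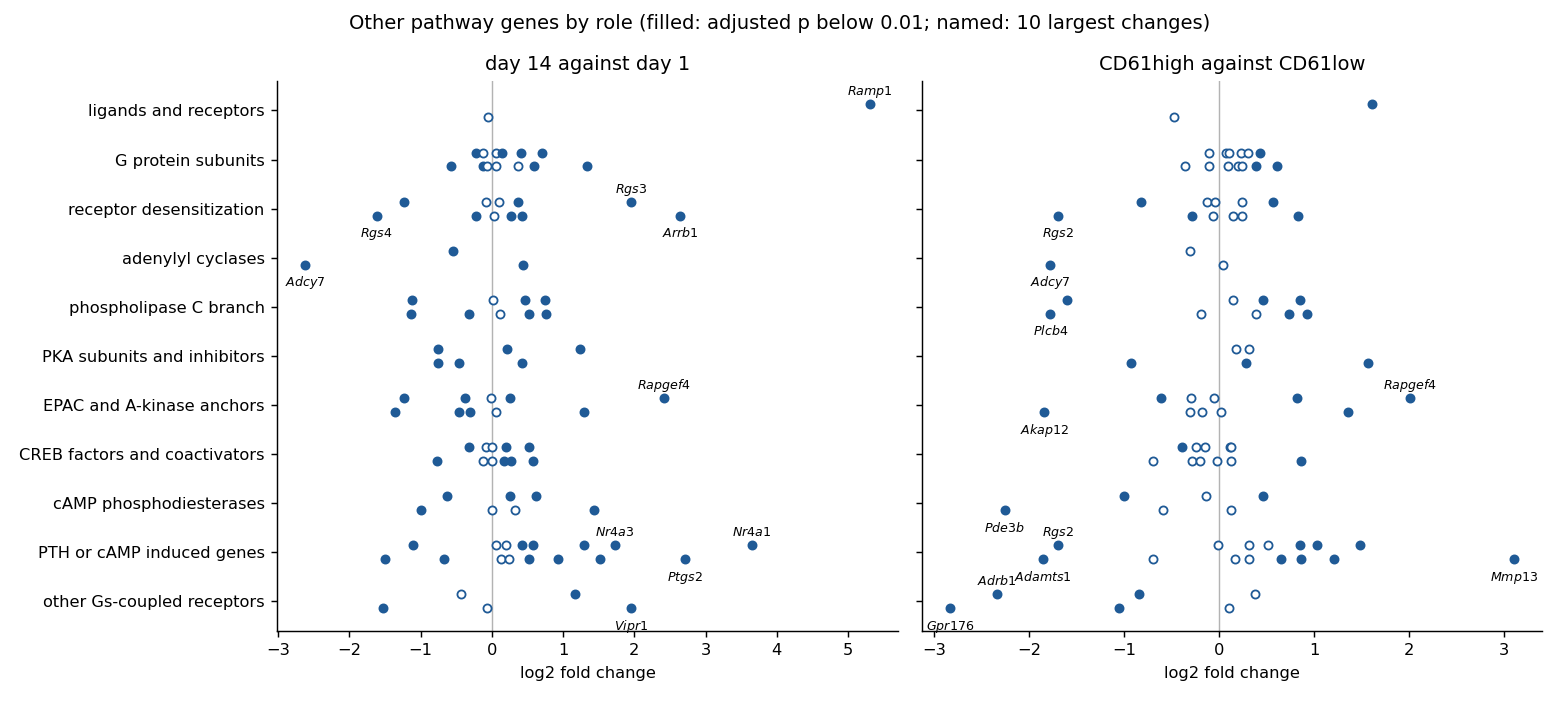
Log2 fold change (x axis) of each other pathway gene tested, by role (y axis), for day 14 against day 1 and CD61high against CD61low, where filled points had an adjusted p below 0.01 and the 10 largest changes in each panel are named. *Ramp1* stands at 5.30 over time, *Mmp13* at 3.11 in the sort, and *Adcy7* is low in both at -2.62 and -1.78.

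The experiments share no libraries. Of the 38 other pathway genes that rose by day 14, 17 (44.7%) were also higher in CD61high cells, which is 73.9% of the 23 higher there. Over all genes called the shares were 38.2% and 67.8%. Of the 27 that fell, 11 (40.7%) were also lower in CD61high cells, 64.7% of the 17 lower there, beside 29.1% and 68.9% over all genes called. The 5 genes called in opposite directions, named after their values were seen, were *Prkar2a*, *Rgs10* and *Mmp13* (lower at day 14, higher in CD61high cells) and *Rgs2* and *Ptger4*, a prostaglandin E2 receptor (higher at day 14, lower in CD61high cells). In edgeR the sort call of *Prkar2a* was lost as given above, that of *Rgs2* with the length offset and that of *Rgs10* with library size alone (log2 fold change 0.27).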

How the data were processed

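RNA was sequenced from 8 unsorted and 6 sorted libraries. The study's methods name selection of polyadenylated RNA for the sorted libraries only. For differentiation, the authors aligned reads with STAR, counted them per gene with HTSeq and deposited CPM; 100% of the CPM values were whole reads within 0.01, from 27518605 to 34311238 reads per library. For the sort, the authors deposited Salmon estimated counts and TPM per transcript on GRCm39. Versions of STAR, HTSeq and Salmon are not given in the sources used here. Other deposited columns, such as transcript lengths, served only for sums and offsets. Annotation was GENCODE M39 (115556 of 116747 transcripts matched, 99.3% to 99.4% of estimated counts). The deposited gene length column was used for CPM per kb.

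Differentiation was tested with limma 3.58.1 (R 4.3.3) on log2(CPM + 1), eBayes with a trend, over the 12725 genes that exceeded 1 CPM somewhere. Fold changes on this scale understate low genes. The files hold CPM, so no count model was the main test there. Estimated counts of the sort were summed to genes, rounded and tested with edgeR 4.0.16 (quasi-likelihood, TMM over all genes) over the 12077 genes whose normalized count reached 5 in each of the 6 libraries. A gene was called at a Benjamini-Hochberg adjusted p below 0.01, over all genes tested. Both fits were tested on simulated data. Alternatives were other filters, scalings, pseudocounts, tools (DESeq2 1.42.0 among them), a replicate block and leaving out each library.

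The members and lists were chosen with earlier results of these data known. All members are named, and, of the other pathway genes called, the 10 with the largest change for day 14 against day 1 and for the sort (mean of at least 1 CPM, no overlap between groups), and the 5 genes most like *Pth1r*; further list genes are named as examples of their role, chosen after their values were seen. Replicates differed by more than sampling noise (chi-square per gene from 2.35 to 20.8).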

Additional observations from a re-analysis of the deposited data

How the results depend on the processing

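With both directions summed, the counts of members and of other pathway genes called stayed within 1.5 times the main count under every alternative run. Split by direction they moved further in these cases. With library size alone the sort gave 15 pathway genes higher and 31 lower in place of 23 and 17, and 3 members lower in place of 1, and without CD61high replicate 3 it gave 11 pathway genes lower. Without a trend, or without day 1 replicate 2, 2 members in place of 4 rose at day 7 and at day 14 against day 1. Of the members' fold changes under alternatives, 604 over time and 108 in the sort kept direction and side of the threshold, 33 and 6 lost the call, 4 and 3 gained it and 7 and 9 changed sign. All sign changes were in values that were not called. *Adcy6* for day 14 against day 10 was 0.0103 with TMM scaling of the recovered reads and 0.0106 with edgeR. *Crtc2* for day 7 against day 1 was 0.0084 with TMM scaling, 0.0092 with quantile normalization, 0.011 with edgeR, 0.017 with DESeq2, and from -0.085 to 0.012 when libraries were left out. In the sort, library size alone gave -0.28 for *Gnaq* and -0.28 for *Prkaca*, and it made *Crtc2* (-0.52) and *Prkar1a* (-0.33) pass. The cause of these changes was not tested.

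When each sorted library was left out in turn, the log2 fold change of *Gnaq* ran from -0.0376 to 0.0787, that of *Prkaca* from -0.0275 to 0.107 and that of *Prkar1a* from -0.0706 to 0.00794.

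Both sorted groups came from 3 groups of cells, but the labels do not say that a replicate number marks one of them, so a pairing was neither assumed nor excluded. Deviations of same-numbered sorted libraries had correlations of -0.321, 0.22 and -0.0614, those of differently numbered ones ran from -0.406 to 0.466 (highest for CD61low replicate 3 with CD61high replicate 1), and those of differentiation libraries from -0.0253 to 0.0611. With a replicate block, 7, 7, 6 and 9 members and 56, 45, 47 and 66 other pathway genes were called for days 7 against 1, 10 against 7, 14 against 10 and 14 against 1, and 4 and 37 in the sort. *Pthlh*, with at most 12 reads in any library, stayed below the filter in both experiments. Of the 40 other pathway genes called in the sort, 8 lost the call with library size alone, 1 of them (*Prkar2a*) with a change of sign, and 8 with an offset for transcript length.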
